A study of Homo sapiens with 4 samples.

Results

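The genes described here are the transcription factors, kinases and reported targets at the output end of the Hippo pathway. They are 10 genes chosen by symbol, YAP1, WWTR1, TEAD1 to TEAD4, LATS1, LATS2, CCN1 and CCN2, out of 58884 genes in the deposited count tables. All 10 were matched by Ensembl identifier, and all 10 were among the 19686 genes with enough counts to be tested. The study sequenced RNA of HCT116 cells, an epithelial line from a human colorectal carcinoma, as 2 libraries labelled RALY knockdown and 2 labelled wild type, which are called control here. RALY belongs to the hnRNP family of RNA-binding proteins. Per the labels' protocols, cells were exposed for 72 h to lentivirus that carried either a nonsilencing hairpin or one against RALY, with a polycation that aids infection. Another label calls the control cells untreated, so it is not settled whether the controls carried the nonsilencing hairpin, and lentiviral infection and loss of RALY cannot be told apart if they did not. The sources used here do not state how many hairpins were used. The cell line entry is the same for all 4 libraries, although the source label gives it a different number in replicate 2. Since no label names separate cultures within a group, the p-values below cover the spread between these libraries only, which may be technical.

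In the Hippo pathway, the kinases LATS1 and LATS2 phosphorylate the coactivators YAP, encoded by YAP1, and TAZ, encoded by WWTR1, which keeps them out of the nucleus. Unphosphorylated YAP and TAZ enter the nucleus and bind DNA through the TEAD proteins. CCN1 and CCN2 encode secreted matricellular proteins, also known as CYR61 and CTGF, and are widely used readouts of YAP and TAZ activity. CCN2 also responds to TGF-beta signalling. In intestinal epithelium YAP is known for its part in regeneration and tumour growth. Messenger RNA levels do not show the phosphorylation or the location of YAP and TAZ, which were not measured.

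Library totals ran from 14762755 to 16493967 counts in the RALY knockdown and from 13360007 to 16847520 in the controls, so that 3 counts correspond to between 0.174 and 0.227 CPM, or counts per 1e6 of a library total scaled by TMM, a correction for composition. RALY had 634 and 522 counts in the knockdown libraries, against 1903 and 2132 in the controls, and 27.9% of its control level remained (log2 fold change -1.84, SE 0.127, edgeR adjusted p = 6.59e-06). The epithelial markers summed to 629 and 671 CPM in the knockdown and to 695 and 599 CPM in the controls. Fibroblast markers, which include sources of CCN1 and CCN2 in tissue, summed to 227 and 248 CPM in the knockdown and to 195 and 227 CPM in the controls. COL1A1, COL6A3 and PDGFRB made up most of that sum. Of the other fibroblast genes listed, COL3A1 had 13 and 8 counts in the knockdown, against 3 and 9 in the controls. DCN, LUM, COL1A2 and PDGFRA had at most 8 counts in any library. Of 18 markers tested over the lists for epithelium, fibroblasts, leukocytes and endothelium, 2 rose, 1 fell and 15 did not pass the test. Over all tested genes, 25.6% passed, with 12.5% higher and 13.1% lower. COL6A3 of the fibroblast list rose (log2 fold change 0.70, edgeR adjusted p = 0.00137), while COL1A1 of that list was at -0.34 (edgeR adjusted p = 0.107). ITGAM of the leukocyte list rose (log2 fold change 1.24, edgeR adjusted p = 0.0106), and CDX2 of the epithelial list fell (log2 fold change -0.47, edgeR adjusted p = 0.0312). The part of these markers in the results below was not tested. Markers of leukocytes summed to between 35.1 and 38.0 CPM and those of endothelium to between 8.54 and 10.6 CPM over all 4 libraries.

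After RALY knockdown, CCN2, CCN1, TEAD1, YAP1 and LATS1 rose, by between 1.41-fold and 5.84-fold. WWTR1, TEAD2, TEAD3, TEAD4 and LATS2 did not pass the test in either direction. The 5 of 10 that passed compare with 25.6% of all tested genes that passed in either direction and 12.5% that passed as higher (edgeR quasi-likelihood test, Benjamini-Hochberg adjusted p under 0.05). Without control replicate 2, 3 of the 10 passed, CCN2, CCN1 and TEAD1, against 4.82% of all genes tested in that setting. The median log2 fold change of the 10 genes was 0.36, and that of all tested genes was 0.01. In CPM, both knockdown libraries lay above both controls for these 5 genes, and below both for WWTR1 and TEAD3. Over all tested genes the groups did not overlap in 63.6%, with the knockdown above in 32.3% and below in 31.3%. Counts from bulk cultures cannot tell a change in RNA per cell from a change in the make-up of the culture.

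**Figure D1:**
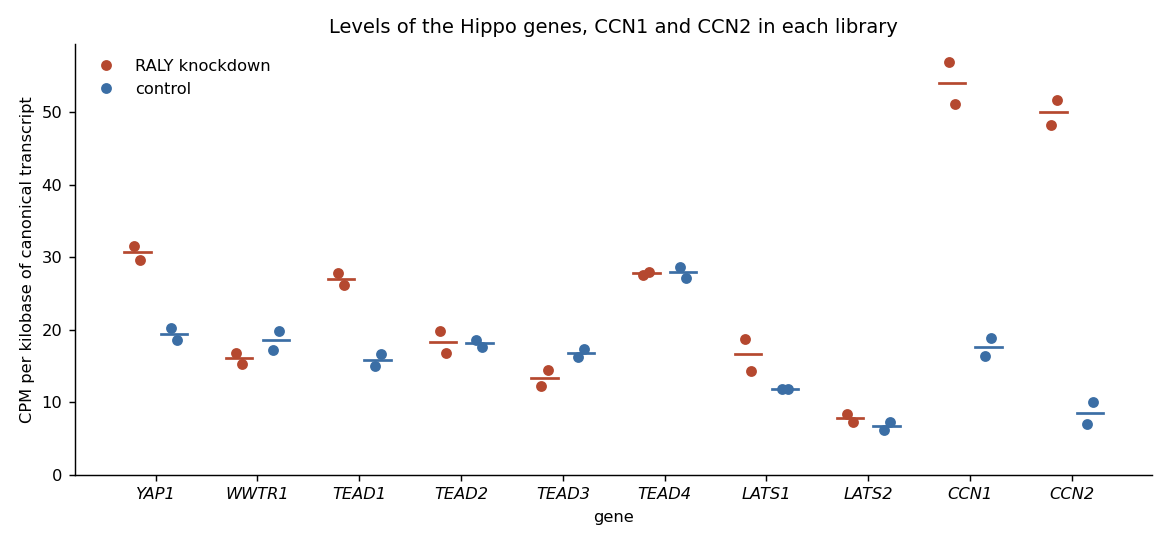
CPM per kilobase of canonical transcript for each of the 10 genes (vertical axis, linear and starting at 0) in every library, with RALY knockdown on the left of each pair and control on the right; points are libraries and lines are the means of 2. The 2 knockdown points lie above the 2 control points for YAP1, TEAD1, LATS1, CCN1 and CCN2, with means of 54.0 and 50.0 against 17.7 and 8.50 for CCN1 and CCN2.

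CCN2, a matrix-associated growth factor modulator, showed the largest difference of the 10. The gene lies on the minus strand of chromosome 6 (ENSG00000118523, from 131948176 to 131951372; all gene coordinates are on GRCh38, as deposited). Its RefSeq upstream sequence is shown because it holds the DNA element that TEAD proteins are known to bind, and that of YAP1 because it is the only other one found to hold it among the genes with an entry. Each stretch is the 250 bases before the RefSeq start, 5′ to 3′ on the strand of the gene (build GRCh38.p14), and capitals mark the TEAD element GGAATG. The stretch of CCN2 is chr6:131951373-131951622 (minus strand) and that of YAP1 is chr11:102110197-102110446 (plus strand).
CCN2: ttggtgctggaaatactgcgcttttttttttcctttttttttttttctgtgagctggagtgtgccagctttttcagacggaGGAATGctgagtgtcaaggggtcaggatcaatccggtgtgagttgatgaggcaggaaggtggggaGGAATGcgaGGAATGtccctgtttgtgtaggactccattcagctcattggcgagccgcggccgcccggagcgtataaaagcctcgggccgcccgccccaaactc
YAP1: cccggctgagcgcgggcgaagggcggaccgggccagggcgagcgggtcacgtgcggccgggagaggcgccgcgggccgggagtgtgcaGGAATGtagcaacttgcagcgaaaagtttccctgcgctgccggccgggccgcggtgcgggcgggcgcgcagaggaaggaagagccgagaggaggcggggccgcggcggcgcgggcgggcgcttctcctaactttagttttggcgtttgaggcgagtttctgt
Counted back from the base before the start, the CCN2 elements began at -169, -104 and -95, and the YAP1 element began at -162. Of 35116 upstream stretches of this length in RefSeq, 11.9% held at least 1 GGAATG on either strand and 0.0826% held 3 or more.

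The upstream sequences were also searched, on both strands, for the SMAD element CAGAC, an AP-1 pattern and the CArG box of serum response factor. The AP-1 pattern was taken loosely as TGANTCA, with any base at its centre. CCN2 had 1 CAGAC, from -177 to -173, which does not overlap a TEAD element, and 38% of all stretches held one. LATS1, whose gene has more than 1 RefSeq start, had 1 TGANTCA, with A at its centre, beginning at -245 of one of them. Of all stretches, 6.57% held a TGANTCA. No CArG box was found in any of them, where 1.16% of all stretches held one. Entries were found for 7 of the 10 genes, in 10 stretches; CCN1, TEAD1 and TEAD4 had none. These matches describe the letters in the windows and are not shown to be bound sites.

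CCN2 had 1810 and 1798 counts in the knockdown libraries, against 214 and 407 in the controls. In CPM this was 113 and 121 in the knockdown, against 16.2 and 23.5 in the controls. The knockdown libraries lay close together and far above both controls, and the lower control had 0.689 times the level of the other. The mean was 117 ± 5.64 CPM in the knockdown and 19.9 ± 5.18 CPM in the controls (SD, n = 2 each), a 5.84-fold rise (log2 fold change 2.55, SE 0.161, edgeR adjusted p = 4.61e-06). It was the 117th largest rise among the 19686 tested genes.

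CCN1, the other matricellular gene, is on chromosome 1 (ENSG00000142871, from 85580761 to 85583950, plus strand). It had 2076 and 1733 counts in the knockdown libraries, against 494 and 745 in the controls. These were 130 and 117 CPM in the knockdown, against 37.4 and 43.1 CPM in the controls, with no overlap between the groups. CCN1 rose 3.05-fold (log2 fold change 1.61, SE 0.123, edgeR adjusted p = 1.49e-05). For CCN1, as for CCN2, control replicate 2 was the higher of the controls.

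Per kilobase of canonical transcript, CCN1 and CCN2 stood at 54.0 ± 4.03 and 50.0 ± 2.41 CPM in the knockdown and at 17.7 ± 1.76 and 8.50 ± 2.22 CPM in the controls (SD, n = 2 each). The knockdown libraries of CCN1 and CCN2 overlapped each other, whereas in the controls both libraries of CCN1 lay above both of CCN2. CCN2 made up 48.1% ± 3.07 of the sum of both genes in the knockdown and 32.2% ± 3.58 in the controls, a difference of 15.9 percentage points. Such shares were compared for 4 paralog groups by an exact two-sided permutation test over libraries, which with 2 against 2 cannot give a p below 0.333, and gave 0.333 here.

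The counts of CCN1 and CCN2 reached 45.6% and 38.7% of 2 counts per base of canonical transcript, the highest values of the 10 genes. If reads that share a position were merged before counting, which the sources used here do not say, counts would level off as this share grows. With a correction for this, the log2 fold changes were 1.87 for CCN1 and 2.82 for CCN2. CCN2 shares 8.3% of its exon bases with the gene ENSG00000227220 on the opposite strand, which had at most 2 counts in any library. CCN1 shares none.

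Among the coactivators, YAP1 rose and WWTR1 did not pass the test. YAP1 (ENSG00000137693) lies on the plus strand of chromosome 11, from 102110447 to 102233424. It had 2736 and 2387 counts in the knockdown, against 1437 and 1736 in the controls. These were 171 and 161 CPM in the knockdown, against 109 and 100 CPM in the controls. The rise was 1.58-fold (log2 fold change 0.66, SE 0.112, edgeR adjusted p = 0.0014), with both knockdown libraries above both controls. Without control replicate 2 the log2 fold change was 0.59 and the call was lost (edgeR adjusted p = 0.0509).

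WWTR1, which encodes TAZ (ENSG00000018408, chromosome 3 from 149517235 to 149736714, minus strand), had 1359 and 1146 counts in the knockdown, against 1144 and 1736 in the controls. Its levels of 84.8 and 77.1 CPM in the knockdown lay just below the 86.7 and 100 CPM of the controls. The log2 fold change was -0.21, with a 95% interval from -0.47 to 0.05 (edgeR adjusted p = 0.219). The interval reaches no higher than a small rise, below the whole interval of YAP1, which ran from 0.42 to 0.91. YAP1 shares 10.1% and WWTR1 9.4% of exon bases with antisense genes, and these partners had at most 16 counts in any library.

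Per kilobase, YAP1 made up 65.6% ± 0.542 of the YAP1 and WWTR1 sum in the knockdown and 51.1% ± 4.02 in the controls (SD, n = 2 each). The share was 65.2% and 66.0% in the knockdown libraries, against 53.9% and 48.3% in the controls. By canonical transcript length, the controls thus held both coactivator transcripts at similar levels, and the knockdown libraries held more YAP1 (exact permutation p = 0.333, the smallest the design allows). The level of this share depends on the length used. The exon length of the files is 6311 bases for YAP1 and 8413 for WWTR1, against canonical lengths of 5401 and 5037. By that exon length the YAP1 share is higher in every library. The sum of both was 48.4 and 45.0 CPM per kilobase in the knockdown, against 37.4 and 38.5 in the controls.

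Of the TEAD genes, which encode the DNA-binding partners of YAP and TAZ, TEAD1 was the only one to pass the test. TEAD1 (ENSG00000187079, chromosome 11 from 12674421 to 12944737, plus strand) had 4212 and 3665 counts in the knockdown, against 1866 and 2724 in the controls. Its levels were 263 and 246 CPM in the knockdown, against 141 and 158 CPM in the controls. TEAD1 rose 1.70-fold, with no overlap between the groups (log2 fold change 0.77, SE 0.121, edgeR adjusted p = 0.000923).

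TEAD3 (ENSG00000007866, chromosome 6 from 35473597 to 35497079, minus strand) had 587 and 641 counts in the knockdown, against 643 and 895 in the controls. Its 36.6 and 43.1 CPM in the knockdown lay below the 48.7 and 51.8 CPM of the controls. The log2 fold change of -0.34 (SE 0.136) did not pass the test over all genes (edgeR adjusted p = 0.0889), although its unadjusted 95% interval ran from -0.63 to -0.04. Without knockdown replicate 2 it was called as lower (log2 fold change -0.46, edgeR adjusted p = 0.0192), and likewise with the replicate number as a block (edgeR adjusted p = 0.0372). It was not called without knockdown replicate 1 (log2 fold change -0.24, edgeR adjusted p = 0.247) or without control replicate 1 or control replicate 2 (edgeR adjusted p = 0.224 and 0.350).

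TEAD4 (ENSG00000197905, chromosome 12 from 2959330 to 3040676, plus strand) had 47.0 and 47.9 CPM in the knockdown, against 49.1 and 46.5 CPM in the controls. TEAD2 (ENSG00000074219, chromosome 19 from 49340595 to 49362457, minus strand) had 43.3 and 36.4 CPM in the knockdown, against 40.4 and 38.6 CPM in the controls. For both genes the groups overlapped. The log2 fold change was -0.01 for TEAD4 (95% interval -0.28 to 0.26, edgeR adjusted p = 0.967) and 0.01 for TEAD2 (95% interval -0.29 to 0.32, edgeR adjusted p = 0.955). The sign of the TEAD2 value turned with plain library totals, without a filter on low counts, and without control replicate 2 or knockdown replicate 1. TEAD2 shares 10.7% of its exon bases with CD37 on the opposite strand, which had at most 1 count in any library.

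Per kilobase of canonical transcript, TEAD4 held the largest TEAD share in the controls, and in the knockdown the shares of TEAD1 and TEAD4 overlapped. That overlap depends on the length used. The exon length of the files is 10703 bases for TEAD1 and 2275 for TEAD4, against canonical lengths of 9417 and 1710. TEAD1 made up 31.9% and 30.6% of the summed TEAD transcripts in the knockdown libraries, against 19.1% and 21.2% in the controls. TEAD4 made up 31.4% and 32.8% in the knockdown, against 36.5% and 34.4% in the controls. TEAD3 made up 15.5% ± 2.05 in the knockdown and 21.4% ± 0.841 in the controls (SD, n = 2 each). The TEAD1 share was thus 11.1 percentage points higher in the knockdown. The TEAD3 and TEAD4 shares differed by -5.89 and -3.37 points. For each of these shares the groups did not overlap (exact permutation p = 0.333 for each). Since the shares of a library add up to a whole, a share can fall without a fall in level. The TEAD4 levels of the groups overlapped (log2 fold change -0.01, edgeR adjusted p = 0.967). The TEAD2 shares of the groups overlapped, with 22.7% and 19.6% in the knockdown and 23.6% and 22.5% in the controls. The summed TEAD level was 87.5 and 85.4 CPM per kilobase in the knockdown, against 78.6 and 79.0 in the controls, a ratio of means of 1.1.

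**Figure D2:**
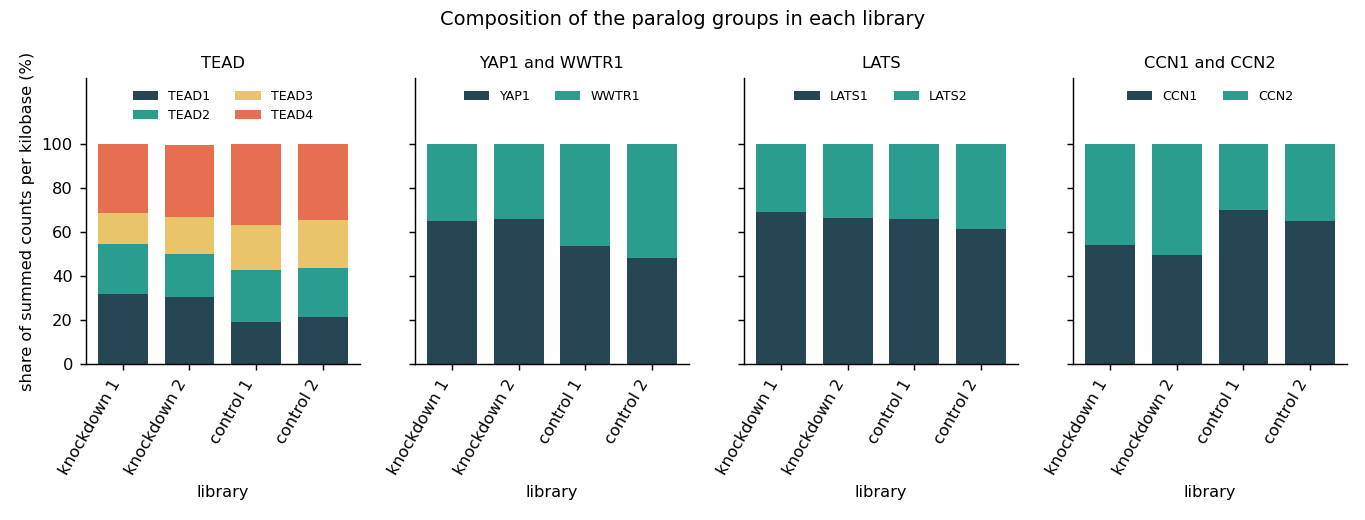
Share of each gene in the summed counts per kilobase of its paralog group (percent), with 1 stacked bar per library and the RALY knockdown libraries to the left of the controls. The TEAD1 segment covers 31.9% and 30.6% in the knockdown libraries, against 19.1% and 21.2% in the controls, and the YAP1 segment covers 65.2% and 66.0%, against 53.9% and 48.3%.

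Of the LATS kinases, the inhibitors of YAP and TAZ, LATS1 rose and LATS2 did not pass the test. LATS1 (ENSG00000131023, chromosome 6 from 149658153 to 149718105, minus strand) had 2224 and 1571 counts in the knockdown, against 1144 and 1507 in the controls. In CPM it stood at 139 and 106 in the knockdown, against 86.7 and 87.2 in the controls. Knockdown replicate 1 was 1.31 times as high as replicate 2, the widest gap of any of the 10 genes between knockdown libraries, while the controls were nearly equal. The rise was 1.41-fold (log2 fold change 0.49, SE 0.133, edgeR adjusted p = 0.0176). The call was lost without control replicate 1, control replicate 2 or knockdown replicate 1 (edgeR adjusted p = 0.19, 0.174 and 0.118), and without the last of these the log2 fold change was 0.26.

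LATS2, itself a reported YAP target that feeds back on the pathway (ENSG00000150457, chromosome 13 from 20973036 to 21061586, minus strand), had 750 and 601 counts in the knockdown, against 448 and 705 in the controls. Its levels were 46.8 and 40.4 CPM in the knockdown, against 34.0 and 40.8 CPM in the controls, so that the groups overlapped. The log2 fold change was 0.22, with a 95% interval from -0.10 to 0.54 (edgeR adjusted p = 0.298). LATS2 made up 32.3% ± 1.95 of the LATS sum per kilobase in the knockdown and 36.3% ± 2.90 in the controls (SD, n = 2 each, exact permutation p = 0.333).

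**Figure D3:**
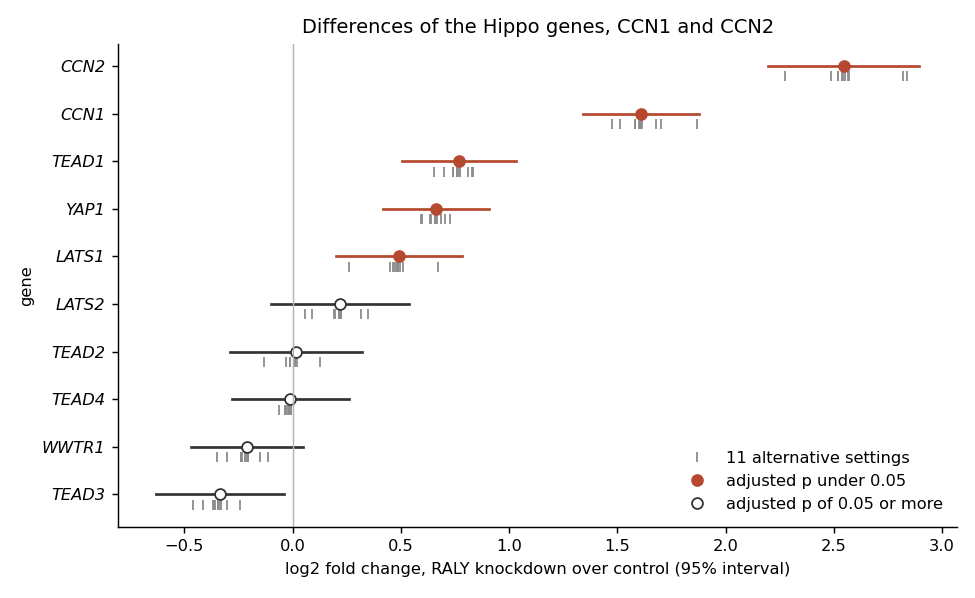
Log2 fold change of RALY knockdown over control for the 10 genes (horizontal axis), with unadjusted 95% intervals as bars, filled points for an adjusted p under 0.05 and grey ticks for 11 alternative settings. CCN2 at 2.55 and CCN1 at 1.61 lie furthest to the right, and the intervals of LATS2, TEAD2, TEAD4 and WWTR1 cross 0.

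The order of the levels per kilobase of canonical transcript differed between the groups. The order between genes depends on the length used and was not computed with the exon length of the files. That length is 10703 bases for TEAD1, 2275 for TEAD4 and 8413 for WWTR1, against canonical lengths of 9417, 1710 and 5037. In the knockdown CCN1 and CCN2 came first and overlapped each other, followed by YAP1 at 30.7 ± 1.33 CPM per kilobase, then TEAD4 at 27.8 ± 0.40 and TEAD1 at 27.0 ± 1.23, which also overlapped (SD, n = 2 each). TEAD2 at 18.3 overlapped LATS1 at 16.6, and LATS1 overlapped WWTR1 at 16.1. Both libraries of WWTR1 lay above both of TEAD3 at 13.3, and LATS2 at 7.86 CPM per kilobase came last. In the controls TEAD4 was highest at 28.0 ± 1.08 CPM per kilobase, above both libraries of every other gene. YAP1, WWTR1, TEAD2, CCN1, TEAD3 and TEAD1 followed between 19.4 and 15.9, each but TEAD1 overlapping the next. LATS1 at 11.8, CCN2 at 8.50 and LATS2 at 6.74 CPM per kilobase were the lowest there, and CCN2 and LATS2 overlapped.

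The wider pathway was described with 5 lists, of 71 genes in all when each is counted once. These lists were chosen with earlier results of these data known. Of 63 that were tested, 22 rose and 5 fell, and the median log2 fold change was 0.23. The share called was 42.9%, against 25.6% of all tested genes, of which 12.5% rose and 13.1% fell. Without control replicate 1 or control replicate 2, 14 of them were called in each case, against 4.79% and 4.82% of all genes tested in those settings.

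Of 30 reported target genes of YAP and TAZ other than CCN1, CCN2 and LATS2, 28 were tested, and 19 rose, none fell and 9 did not pass the test. The median log2 fold change was 0.79, against 0.01 over all tested genes. Of the list, 67.9% was called, against 25.6% of all tested genes. The list was chosen with earlier results of these data known, so these values are a description. Several genes of the list are also known targets of TGF-beta signalling. Without control replicate 1 or control replicate 2, fewer genes of the list were called, as were fewer of all tested genes. AMOTL2, an angiomotin family scaffold that binds YAP, had 184 and 169 CPM in the knockdown, against 66.9 and 69.6 CPM in the controls (log2 fold change 1.37, edgeR adjusted p = 2.2e-05). NUAK2, a kinase of the AMPK family, had 47.9 and 43.2 CPM in the knockdown, against 10.9 and 13.1 CPM in the controls (log2 fold change 1.92, edgeR adjusted p = 3.22e-05). For both genes the 2 knockdown libraries lay well above the 2 controls. AJUBA, a LIM protein that binds LATS kinases, had 112 and 106 CPM in the knockdown, against 36.5 and 44.8 CPM in the controls (log2 fold change 1.42, edgeR adjusted p = 3.46e-05). For AJUBA, too, the groups did not overlap.

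The list of 16 YAP and TEAD binding partners and scaffolds had 13 tested genes, of which 4 rose, 1 fell and 8 did not pass the test, a share called of 38.5% against 25.6% of all tested genes. AMOTL2 and AJUBA belong to this list too. PTPN14, a phosphatase that binds YAP and is also on the target list, had 222 and 185 CPM in the knockdown, against 68.4 and 85.0 CPM in the controls (log2 fold change 1.41, edgeR adjusted p = 5.6e-05). VGLL3, a TEAD cofactor of the vestigial-like family, had 38.6 and 49.4 CPM in the knockdown, against 9.32 and 13.8 CPM in the controls (log2 fold change 1.92, edgeR adjusted p = 8.79e-05). WWC1, or KIBRA, which activates LATS kinases, was lower, with 94.3 and 68.4 CPM in the knockdown, against 124 and 121 CPM in the controls (log2 fold change -0.59, edgeR adjusted p = 0.0101). The WWC1 call was lost without control replicate 1 or control replicate 2 (edgeR adjusted p = 0.113 and 0.118). The called genes of this list thus moved in both directions, and AMOTL2, AJUBA and PTPN14 are counted in both this list and the target list.

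Of 18 core Hippo kinases, adaptors and upstream kinases, all tested, 1 rose, 3 fell and 14 did not pass the test, a share called of 22.2% against 25.6% of all tested genes. STRN4, a subunit of the STRIPAK phosphatase complex that opposes the Hippo kinases, had 95.8 and 81.0 CPM in the knockdown, against 173 and 156 CPM in the controls (log2 fold change -0.90, edgeR adjusted p = 0.000384). The kinase genes TAOK2 and STK25 fell, at log2 fold changes of -0.36 and -0.32 (edgeR adjusted p = 0.0319 and 0.0493). MOB1B, a cofactor of the LATS kinases, rose (log2 fold change 0.36, edgeR adjusted p = 0.0352). The calls of TAOK2, STK25 and MOB1B were lost without control replicate 1, control replicate 2 or knockdown replicate 2 (edgeR adjusted p from 0.0952 to 0.198). STK25 was also not called by DESeq2 (adjusted p = 0.0664), nor MOB1B without a filter on low counts (edgeR adjusted p = 0.0503). The log2 fold change of STRN4 was -0.86 without control replicate 1 and -0.98 without control replicate 2.

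Of the other CCN genes, CCN3 alone was tested, with 19.1 and 31.2 CPM in the knockdown, against 10.6 and 14.3 CPM in the controls (log2 fold change with a 95% interval from 0.47 to 1.54, edgeR adjusted p = 0.0111). Without control replicate 1 or control replicate 2 it was not called (edgeR adjusted p = 0.218 and 0.0968). CCN4, CCN5 and CCN6 had at most 4 counts in any library. Of 7 genes of 14-3-3 proteins, which hold phosphorylated YAP in the cytoplasm, YWHAG fell (log2 fold change -0.40, edgeR adjusted p = 0.0336), and the other 6 did not pass the test. The share called was 14.3%, below the 25.6% of all tested genes. The YWHAG call was lost without control replicate 1 or control replicate 2 (edgeR adjusted p = 0.175 and 0.0537).

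**Figure D4:**
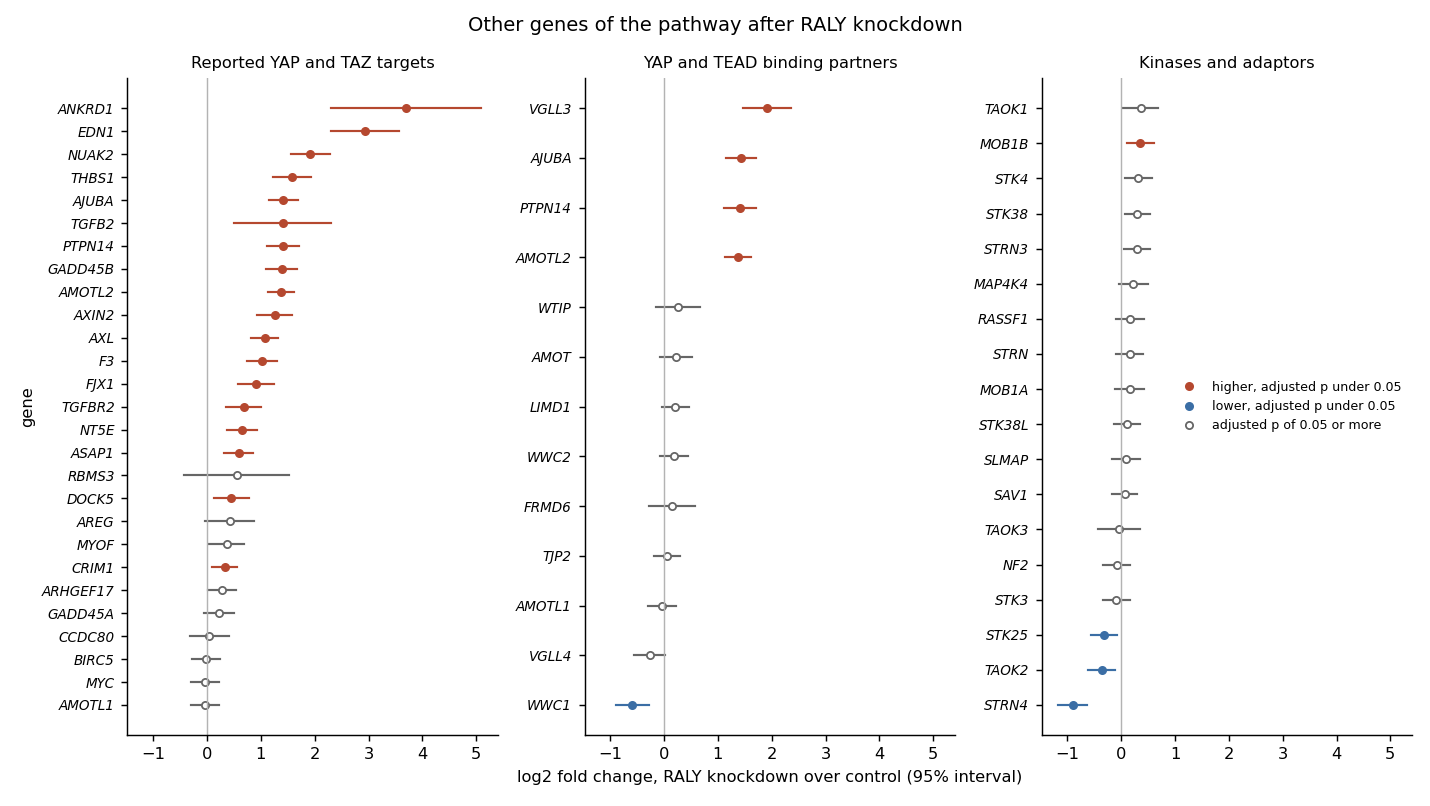
Log2 fold change of RALY knockdown over control with unadjusted 95% intervals for tested genes of 3 lists, on a shared horizontal axis. In the left panel 18 of the 27 reported YAP and TAZ targets drawn are filled as higher and none as lower. In the middle panel 4 of 13 binding partners and scaffolds are higher and 1 lower. In the right panel 1 of 18 kinases and adaptors is higher and 3 lower.

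Over the 4 libraries, the genes most like CCN2 in log2 CPM centred on the mean of each gene were KRT80, a keratin gene, PKD1L1, of the polycystin family, and GABRR2, a GABA receptor subunit gene. Their Euclidean distances from CCN2 were 0.169, 0.170 and 0.282 among the 12412 tested protein-coding genes that averaged at least 5 CPM. KRT80 had 2166 and 1864 counts in the knockdown, against 256 and 459 in the controls. The genes most like CCN1 were UNC13D, SPTBN5 and SVIL, at distances of 0.123, 0.125 and 0.126. SVIL, which encodes the actin-binding supervillin, had 855 and 700 counts in the knockdown, against 220 and 329 in the controls. With 4 libraries these distances follow mainly the size of the difference between the groups and are given as a description.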

How the data were processed

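Each library has a deposited table of counts, whole numbers of reads assigned to a gene, in the featureCounts layout per the file headers. The authors used, per the submitters' processing notes, HISAT2 2.0.4, SAMtools, featureCounts and Subread with the genome build GRCh38. Settings, strand use and any removal of reads that share a position were not given in the sources used here. Without strand, reads of a gene and its antisense partner cannot be told apart.

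Of 58884 Ensembl genes, 58472 were found in GENCODE release 44, and 58458 lay at an overlapping place, so names and canonical transcript lengths came from that release. The test used edgeR 4.0.16 in R 4.3.3 on the counts (filterByExpr, TMM scaling, robust quasi-likelihood F test, Benjamini-Hochberg adjustment over all 19686 genes tested, called at an adjusted p under 0.05), which was tested on simulated data. SEs were derived from the F statistic. CPM are counts per 1e6 of the TMM-scaled total. Intervals are unadjusted. Within a group, counts of the libraries differed beyond sampling noise, with a chi-square per degree of freedom of 10.3 for the knockdown pair and 5.53 for the control pair.

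The members, lists and rules were chosen with earlier results of these data known. Named were all members and, per list, up to 4 called genes of smallest p in the direction that most called members took and up to 2 in the opposite one, averaging at least 1 CPM; 1 gene so named is counted in its list but not reported here. Likeness took 3 genes for CCN1 and 3 for CCN2. Alternatives were DESeq2 1.42.0 size factors, plain totals, the DESeq2 Wald test, 2 other filters, a replicate block, omission of 1 library at a time, counts corrected for levelling off at 2 counts per transcript base, and, for shares, the exon length of the files.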

Additional observations from a re-analysis of the deposited data

How the results depend on the processing

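CCN1, CCN2 and TEAD1 kept their direction and call in all 11 alternatives, with log2 fold changes from 1.48 to 1.87, from 2.27 to 2.84 and from 0.65 to 0.83. The 10 genes gave 5 calls, and from 3 to 6 with 1 library left out. Calls over all genes numbered 5048, and from 984 to 6259 with 1 library left out, the low values being those without a control, where the spread comes from the knockdown pair alone and 1 control is assumed to vary likewise. Calls in the pathway lists numbered 27, and from 14 to 28 with 1 library left out. TEAD2 turned negative with plain library totals (-0.011), no filter (-0.010), without control replicate 2 (-0.03) and without knockdown replicate 1 (-0.13), reached 0.13 without knockdown replicate 2, and was called in none of them. No label says that the replicate numbers pair the libraries. The replicate 1 minus 2 differences of both groups correlated at 0.219 over genes, and whether same-numbered libraries share a culture or day was not tested. With the replicate block, calls numbered 7054 over all genes, or 35.8% of those tested in place of 25.6%. Among the 10 they numbered 6, the added one being TEAD3 as lower (edgeR adjusted p = 0.0372). In the list of 18 kinases and adaptors they numbered 7 in place of 4, while calls over all genes also rose. The share differences of TEAD1, LATS2 and WWTR1 were 11.9, -4.10 and -13.3 points with the exon length of the files and 12.1, -4.26 and -16.0 points with corrected counts, in place of 11.1, -3.96 and -14.5. The 95% intervals of LATS2 and WWTR1 include 0 and reach 0.54 and -0.47.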

Other observations

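ANKRD1, a muscle ankyrin repeat protein and widely used YAP target, was singled out after its values were seen. It had 36 and 32 counts in the RALY knockdown libraries, against 0 and 5 in the controls, so its fitted log2 fold change of 3.70 rests on few control counts (edgeR adjusted p = 0.00166). The reported targets that did not pass the test, also singled out after their values were seen, included MYC and BIRC5, at log2 fold changes of -0.04 and -0.01 (edgeR adjusted p = 0.861 and 0.967). AMOTL1, a paralog of AMOTL2, stood at -0.04 (edgeR adjusted p = 0.846). FOXF2, VGLL1 and VGLL2 had no count in any library, and IGFBP3 had 1 count in 1 control library.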
